A study of Mus musculus with 6 samples.

Results

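The germline genes described here are 10 genes of germ cell and meiotic function. They were listed together as genes kept low outside germ cells through promoter DNA methylation and the repressor complex PRC1.6. In these cells Tex19.1 was not low, and Hormad1, Sycp3 and Stk31 were each higher than 41.1% to 46.4% of tested genes. The 10 genes are Dazl, Ddx4, Mael, Tex19.1, Stk31, Sycp1, Sycp3, Hormad1, Tex101 and Slc25a31. They were named as a list and matched by gene symbol among the 55401 genes of each table, and all 10 were found. The series measured poly(A) RNA in 6 libraries from mouse embryonic stem cells (mESCs) of the 46C line and asked what extra Rbbp4 or Rbbp7 does to gene expression. RBBP4 and RBBP7 are homologous histone-binding proteins that are shared by several chromatin complexes. The control group stably expressed the biotin tag alone, the Rbbp4 OE group biotin-tagged Rbbp4 and the Rbbp7 OE group biotin-tagged Rbbp7, with 2 libraries in each. The study's methods describe such lines as made by lentivirus in cells that already carried a biotin ligase, with blasticidin and puromycin selection, and the growth medium held serum, LIF and the inhibitors Chir99021 and PD0325901. The sources used here do not say whether a line came from a single cell or whether replicates came from separate cultures. The p-values therefore measure only the spread between these libraries, which may be technical.

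In mammals, germline genes carry promoters rich in CpG, the dinucleotide at which DNA is methylated. DNMT3A, DNMT3B and their partner DNMT3L place the methyl groups around implantation, and DNMT1 with UHRF1 copies them at each cell division. PRC1.6, built from PCGF6, L3MBTL2, MGA, MAX, E2F6 and other subunits, represses many of the same promoters; MGA with MAX recognises the E-box CACGTG, and E2F6 recognises sites such as GCGGGA. Neither DNA methylation nor PRC1.6 binding was measured in these libraries.

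Promoter sequences were taken from RefSeq on GRCm38.p6, as windows from 250 bases before to 50 bases after each gene's start, and all 10 genes had a window. The motifs searched were CACGTG, which reads the same on both strands, and GCGGGA on either strand (TCCCGC on the other). At least 1 match to CACGTG was found in 7 of the 10 windows (70.0%), against 7.2% of the 27025 genes with a window and 10.3% of the 10090 tested genes with one. GCGGGA was also found in 7 of the 10, against 20.2% and 36.6%. At least 1 of the 2 motifs was found in 8 of the 10 (80.0%), against 25.4% and 43.0%. Because the genes were listed as PRC1.6 targets, these shares describe the list and test nothing. The windows held a median of 23 CpGs, against 7 over all windows and 21 over tested genes. Their median ratio of observed to expected CpGs was 0.77, against 0.39 over all windows and 0.77 over tested genes, so in CpG content the germline promoters were like those of other genes expressed in these cells.

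**Figure D1:**
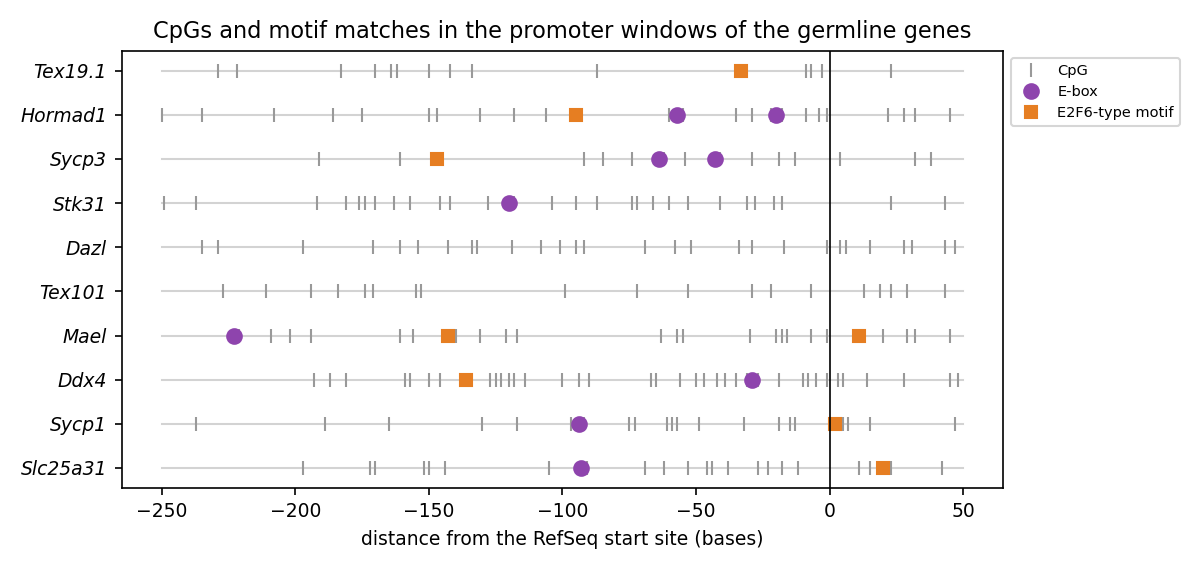
CpGs (grey ticks), E-boxes (CACGTG, purple circles) and E2F6-type motifs (GCGGGA on either strand, orange squares) in the promoter windows of the 10 germline genes, by distance in bases from the RefSeq start site. Dazl and Tex101 hold neither motif, Stk31 holds only an E-box and Tex19.1 only an E2F6-type motif.

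The stretches upstream of both the RefSeq and the GENCODE start are given for 4 genes, 5′ to 3′ on the gene's own strand, with matches to either motif in capitals. Sycp3, Hormad1 and Tex19.1 are shown because both Rbbp4 OE libraries lay outside both controls for these genes. Dazl is shown beside them as a gene with neither motif, whose libraries overlapped the controls in both lines. Ddx4, Mael, Sycp1 and Slc25a31 hold both motifs and Stk31 holds an E-box. Their Rbbp4 OE libraries overlapped the controls as well. A link between motifs and changes in level was not tested. The coordinates on GRCm38.p6 are chr10:88459337-88459568 (+) for Sycp3, chr3:95559427-95559676 (+) for Hormad1, chr11:121145893-121146142 (+) for Tex19.1 and chr17:50293637-50293870 (-) for Dazl.
Sycp3: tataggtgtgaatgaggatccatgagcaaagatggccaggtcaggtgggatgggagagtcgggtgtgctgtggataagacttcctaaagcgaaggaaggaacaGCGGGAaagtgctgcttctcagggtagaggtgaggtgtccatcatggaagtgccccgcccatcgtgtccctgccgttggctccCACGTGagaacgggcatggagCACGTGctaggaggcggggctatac
Hormad1: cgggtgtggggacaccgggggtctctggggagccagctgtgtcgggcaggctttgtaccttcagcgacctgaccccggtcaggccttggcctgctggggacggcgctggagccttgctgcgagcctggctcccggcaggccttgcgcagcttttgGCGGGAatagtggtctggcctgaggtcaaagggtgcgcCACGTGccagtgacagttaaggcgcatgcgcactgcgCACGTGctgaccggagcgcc
Tex19.1: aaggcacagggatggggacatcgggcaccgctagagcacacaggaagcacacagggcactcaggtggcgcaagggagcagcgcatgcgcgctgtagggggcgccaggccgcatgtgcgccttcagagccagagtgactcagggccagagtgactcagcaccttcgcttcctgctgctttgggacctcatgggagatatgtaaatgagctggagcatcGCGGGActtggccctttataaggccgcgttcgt
Dazl: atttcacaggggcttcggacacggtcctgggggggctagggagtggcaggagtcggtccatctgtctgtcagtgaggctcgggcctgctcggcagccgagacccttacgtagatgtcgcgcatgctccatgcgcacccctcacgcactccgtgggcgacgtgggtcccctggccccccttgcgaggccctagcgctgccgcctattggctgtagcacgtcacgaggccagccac
Sycp3 carries E-boxes that begin 64 and 43 bases upstream of its RefSeq start and an E2F6-type match 147 bases upstream. In Hormad1 the E-boxes begin 57 and 20 bases upstream and the E2F6-type match 95 bases upstream. Tex19.1 has a single match, GCGGGA, which begins 33 bases upstream. A match is a run of letters and not a shown binding site, and the absence of a match says only that these letters are not in the window. GENCODE places the start of Tex101 4625 bases and that of Ddx4 165 bases upstream of the RefSeq start, the furthest among the 10, so for Tex101 the window describes the RefSeq promoter only.

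The libraries were first checked as stem cells. TPM is a length-scaled share of the transcripts in a library, set to the same total in each, and it does not keep sequencing depth, which is unknown. Each library listed 19011 to 19691 genes above 0 TPM. All 8 pluripotent cell markers were expressed, at 76.8 TPM or more in every library. Of the 11 germ cell and spermatid markers, 5 (Nanos2, Prm1, Prm2, Tnp1 and Crisp2) were listed at 0 in all 6 libraries, and Kit, which had 82.8 to 111 TPM, made up most of the list's sum of 86 to 115 TPM. The markers of other lineages were low apart from the trophoblast list, whose sum ranged from 35.3 to 47.1 TPM. Tfap2c, which mESCs also express, made up most of it at 23.1 to 35.0 TPM. Eomes had 5.32 to 11.2 TPM and Cdx2 2.93 to 5.49 TPM. Gata3 had 0.39 to 1.29 TPM, Hand1 0.05 to 2.11 TPM and Elf5 at most 0.04 TPM. The sum was 0.97 to 3.11 TPM for primitive endoderm, 5.41 to 7.37 TPM for neural cells and 2.22 to 5.60 TPM for mesoderm. Rbbp4 rose in Rbbp4 OE (log2 fold change 0.88, limma adjusted p = 0.00173) and Rbbp7 rose in Rbbp7 OE (1.63, limma adjusted p = 0.000227), as the group labels state. The ratio of mean TPM to the controls was 1.85 for Rbbp4 and 3.1 for Rbbp7, so the lines differed in the size of the increase. That of Rbbp4 was under the 2-fold limit used for calls below.

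The 10 genes differed widely in level across the 6 libraries. Tex19.1, which restrains retrotransposons in germ cells and is also known in pluripotent cells, had a mean of 50.1 TPM, higher than 81.2% of the 14156 genes tested. This level goes against calling Tex19.1 silenced in these cells, and the 10 genes are called germline genes here for that reason. Hormad1 (8.63 TPM), Sycp3 (7.99 TPM) and Stk31 (6.52 TPM) followed, each higher than 41.1% to 46.4% of tested genes. Dazl (4.07 TPM), Tex101 (3.30 TPM) and Mael (2.24 TPM) came next, and Ddx4 (1.36 TPM) and Sycp1 (1.23 TPM) were close to 1 TPM. Slc25a31 had 0.533 TPM, higher than only 1.1% of tested genes, and stayed under 1 TPM in every library. Neighbours in this order overlapped in their ranges over the 6 libraries, except that Tex19.1 stood clear of Hormad1 and Stk31 stood clear of Dazl. No germline gene of the list was at 0 in any library.

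**Figure D2:**
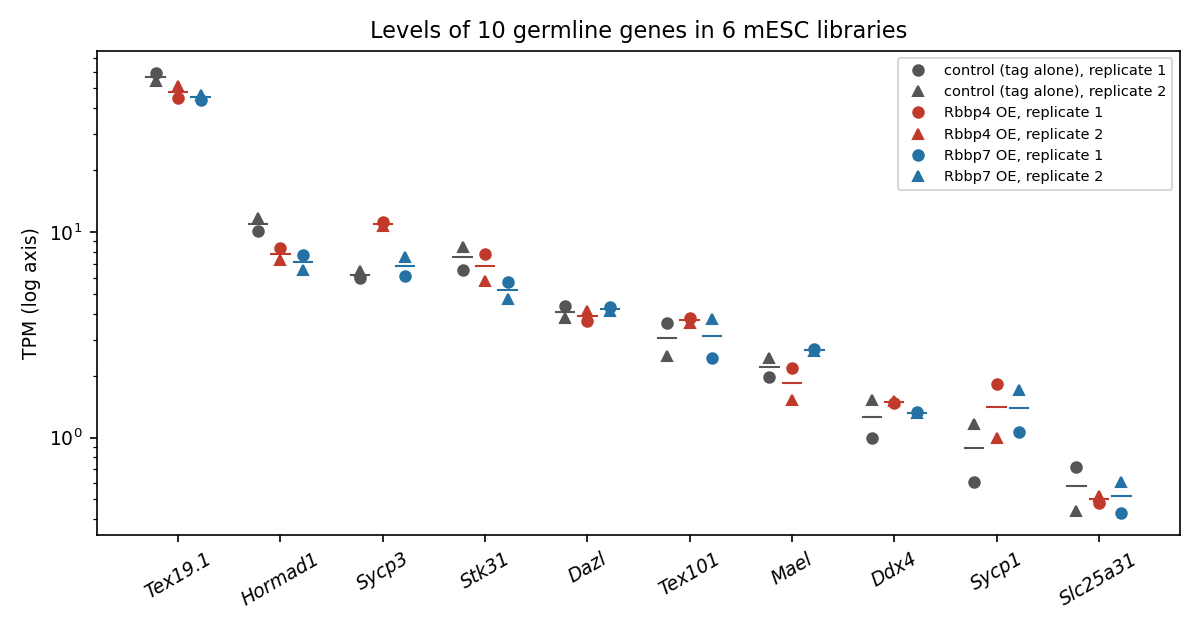
TPM of the 10 germline genes in each of the 6 libraries on a log axis, ordered by mean level; circles are replicate 1, triangles replicate 2 and short bars group means. Sycp3 is above both controls in both Rbbp4 OE libraries, at 11.2 and 10.7 TPM, and Tex19.1 and Hormad1 are below both controls in all 4 overexpression libraries.

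All 10 genes passed the filter for testing, a mean of at least 0.5 TPM over the 6 libraries. With limma on log2(TPM + 1), none of the 10 was called in any comparison. A call was an adjusted p under 0.01 together with more than a 2-fold change of TPM + 1. Against a control mean under 1 TPM, even a fall to 0 cannot reach that fold. Sycp1 (0.885 TPM) and Slc25a31 (0.58 TPM) could therefore not be called lower than the controls. For the other low members a call needed more than a 2-fold change in TPM. The same rule called 0.516% of tested genes in Rbbp4 OE against control, 0.0353% in Rbbp7 OE against control and 0.0494% in Rbbp4 OE against Rbbp7 OE, so a list of 10 genes at the background share would also hold no call. An unadjusted p under 0.05 was found for 3 of the 10 with Rbbp4 OE, 2 with Rbbp7 OE and 1 in the direct comparison of the lines, against 29.6%, 15.4% and 19.0% of tested genes. Under a looser rule, an adjusted p under 0.05 whatever the fold, Sycp3 was higher in Rbbp4 OE, 1 of 10 where 3.29% of tested genes were higher and 11.4% passed in either direction. No member passed this looser rule in Rbbp7 OE or between the lines, where 0.487% and 0.304% of tested genes did. Over the 10 genes, the log2 fold change had a median of -0.06 with Rbbp4 OE and 0.02 with Rbbp7 OE, against -0.08 and -0.00 over all tested genes. In bulk RNA, a change in the number of cells that express a gene and a change in RNA per cell cannot be told apart.

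In Rbbp4 OE, 1 of the 10 genes lay above both controls in both libraries and 2 lay below, while 20.8% of tested genes lay above and 37.1% below. In Rbbp7 OE, 1 lay above and 3 below, while 21.2% of tested genes lay above and 23.4% below. The share of the 10 genes was below that of all tested genes in each of these counts but the last, where 3 of 10 was close to it. Both lines were compared with the same 2 control libraries, so a gene that lies on the same side in both lines does not give independent results.

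Sycp3, a protein of the axial and lateral elements of the synaptonemal complex that joins homologous chromosomes in meiosis, was the member with the largest difference. The gene (ENSMUSG00000020059.9) lies on GRCm38 chromosome 10, 88459569 to 88473236. Sycp3 had 5.95 and 6.45 TPM in the controls, 11.2 and 10.7 TPM with Rbbp4 OE and 6.14 and 7.55 TPM with Rbbp7 OE. Both Rbbp4 OE libraries were above all 4 others, and the Rbbp7 OE libraries overlapped the controls. The group means were 6.20 ± 0.35 TPM in control, 10.9 ± 0.34 TPM with Rbbp4 OE and 6.84 ± 1.0 TPM with Rbbp7 OE (SD, n = 2 each). Sycp3 rose by 0.73 on the log2 scale in Rbbp4 OE (SE 0.14, 95% interval 0.39 to 1.06, limma adjusted p = 0.029), which passed the looser rule only. In Rbbp7 OE the log2 fold change was 0.12 (95% interval -0.22 to 0.45, limma adjusted p = 0.741). The direct difference between the lines was 0.61 (95% interval 0.27 to 0.95) and did not pass the test (limma adjusted p = 0.125).

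Sycp3 passed the looser rule in Rbbp4 OE only with all 6 libraries, while the size of its increase changed little. Its log2 fold change stayed between 0.68 and 0.78 when any 1 library was left out, but the adjusted p then ranged from 0.0677 to 0.175. Sycp3 also lies inside Chpt1, an enzyme gene of phospholipid synthesis on the opposite strand, and 48.2% of the longest Sycp3 transcript is shared with Chpt1 transcripts. The strand setting of the counting is not given in the sources used here, so reads of the 2 genes may not be told apart. Chpt1 had 9.09 and 10.7 TPM in the controls, 6.33 and 7.43 TPM with Rbbp4 OE and 4.25 and 9.27 TPM with Rbbp7 OE. Both Rbbp4 OE libraries were below both controls for Chpt1 (log2 fold change -0.47, limma adjusted p = 0.367), the opposite side from Sycp3.

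The other members that act on meiotic chromosomes did not pass the test. Sycp1 (chromosome 3, 102818499 to 102936100) encodes the transverse filaments of the synaptonemal complex and had 0.61 and 1.16 TPM in the controls, 1.82 and 0.99 TPM with Rbbp4 OE and 1.07 and 1.70 TPM with Rbbp7 OE. Its replicates differed as much as its groups, and the log2 fold change was 0.35 in Rbbp4 OE (95% interval -0.36 to 1.05, limma adjusted p = 0.472) and 0.34 in Rbbp7 OE (95% interval -0.36 to 1.04, limma adjusted p = 0.622). These intervals reach a 2-fold change of TPM + 1, which at levels near 1 TPM is a larger change in TPM. A doubling of Sycp1 could therefore not have been told from none. The same holds for a doubling of Slc25a31 in both lines and of Ddx4 in Rbbp4 OE.

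Hormad1 (ENSMUSG00000028109.14, chromosome 3, 95559677 to 95587671) encodes a HORMA-domain protein of unsynapsed meiotic chromosome axes. It had 10.1 and 11.7 TPM in the controls, 8.35 and 7.28 TPM with Rbbp4 OE and 7.75 and 6.57 TPM with Rbbp7 OE. All 4 overexpression libraries were below both controls, and the lines overlapped each other. The means were 10.9 ± 1.1 TPM, 7.81 ± 0.76 TPM and 7.16 ± 0.83 TPM (SD, n = 2 each). The log2 fold change was -0.43 in Rbbp4 OE (95% interval -0.78 to -0.08) and -0.55 in Rbbp7 OE (95% interval -0.90 to -0.20), and neither passed the test over all genes (limma adjusted p = 0.105 and 0.184). A processed pseudogene, Gm15529, matches 61.0% of the longest Hormad1 transcript at 97.7% identity, so the level of Hormad1 carries some uncertainty. Gm15529 was listed at 0.00 to 0.50 TPM over the 6 libraries.

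Tex19.1 (ENSMUSG00000039329.8, chromosome 11, 121146143 to 121148319) was placed in the same way. It had 59.6 and 54.2 TPM in the controls, 44.8 and 51.5 TPM with Rbbp4 OE and 44.1 and 46.6 TPM with Rbbp7 OE, so all 4 overexpression libraries were again below both controls. The means were 56.9 ± 3.8 TPM, 48.1 ± 4.7 TPM and 45.3 ± 1.8 TPM (SD, n = 2 each). The log2 fold change was -0.24 in Rbbp4 OE (95% interval -0.47 to -0.01, limma adjusted p = 0.159) and -0.32 in Rbbp7 OE (95% interval -0.55 to -0.09, limma adjusted p = 0.209). The intervals of Tex19.1 were the narrowest of the 10 genes and lay within a fold of 2 on either side.

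**Figure D3:**
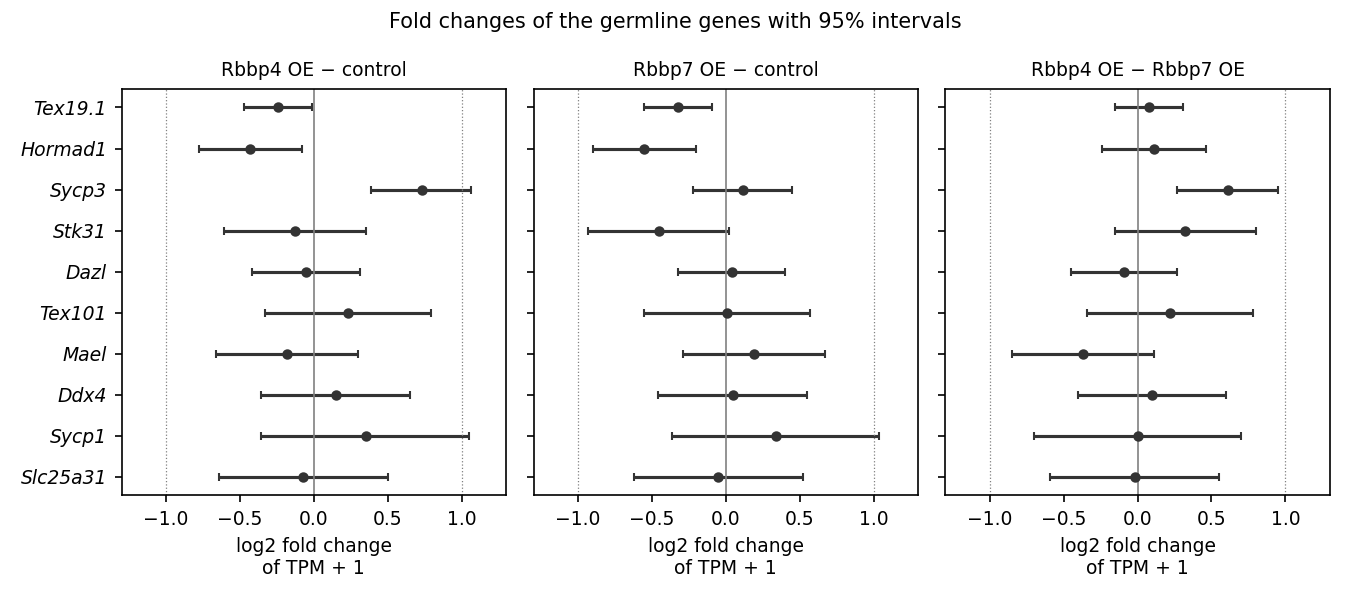
Log2 fold changes of TPM + 1 for the 10 germline genes in the 3 comparisons, ordered by mean level; points are limma estimates, bars 95% intervals without adjustment for multiple tests, and dotted lines mark a fold of 2. Only Sycp3 in Rbbp4 OE against control, at 0.73, passed an adjusted p under 0.05.

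The remaining members with roles in germ cell RNA and small RNA pathways did not pass the test either. Dazl (chromosome 17, 50279395 to 50293636), an RNA-binding protein that promotes translation in germ cells, had 4.35 and 3.82 TPM in the controls, 3.68 and 4.11 TPM with Rbbp4 OE and 4.31 and 4.12 TPM with Rbbp7 OE. The 3 groups of Dazl lay close together, with log2 fold changes of -0.05 (95% interval -0.42 to 0.31) and 0.04 (95% interval -0.32 to 0.40). Ddx4 (chromosome 13, 112598333 to 112652475), the VASA helicase of germ granules, had 1.00 and 1.52 TPM in the controls and 1.31 to 1.50 TPM in the overexpression libraries. Its log2 fold changes were 0.15 (95% interval -0.36 to 0.65) and 0.05 (95% interval -0.46 to 0.55) in Rbbp4 OE and Rbbp7 OE.

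Mael (chromosome 1, 166201201 to 166238747), a factor of the piRNA pathway that silences transposons, had 1.98 and 2.44 TPM in the controls, 2.17 and 1.52 TPM with Rbbp4 OE and 2.69 and 2.63 TPM with Rbbp7 OE. Both Rbbp7 OE libraries were above both controls, by 0.19 on the log2 scale (95% interval -0.29 to 0.67, limma adjusted p = 0.700). Stk31 (chromosome 6, 49395604 to 49469501), a testis protein with a Tudor and a kinase-like domain, had 6.57 and 8.50 TPM in the controls, 7.83 and 5.81 TPM with Rbbp4 OE and 5.69 and 4.74 TPM with Rbbp7 OE. Both Rbbp7 OE libraries were below both controls for Stk31, with a difference of -0.45 on the log2 scale (95% interval -0.93 to 0.02, limma adjusted p = 0.345). Neither difference passed the test.

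The members of later germ cells were Tex101, a surface glycoprotein of germ cells that is needed for fertile sperm, and Slc25a31, the ADP/ATP carrier of the germline. Tex101 (chromosome 7, 24668007 to 24676675) had 3.63 and 2.50 TPM in the controls, 3.83 and 3.60 TPM with Rbbp4 OE and 2.45 and 3.77 TPM with Rbbp7 OE. The 3 groups overlapped, with log2 fold changes of 0.23 (95% interval -0.33 to 0.79) and 0.01 (95% interval -0.55 to 0.57). Slc25a31 (chromosome 3, 40708855 to 40726096) had 0.72 and 0.44 TPM in the controls and 0.43 to 0.61 TPM in the overexpression libraries, with log2 fold changes of -0.07 (95% interval -0.64 to 0.50) and -0.05 (95% interval -0.62 to 0.52).

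Between the lines, Rbbp4 OE lay above Rbbp7 OE without overlap for 3 of the 10 genes (Sycp3, Stk31 and Ddx4) and below for 2 (Mael and Dazl), while 16.1% of tested genes lay above and 38.6% below. No difference passed either rule. The next largest after Sycp3 was that of Mael, at -0.37 on the log2 scale (95% interval -0.85 to 0.11, limma adjusted p = 0.360), followed by Stk31 at 0.32 (95% interval -0.15 to 0.80, limma adjusted p = 0.411).

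The 10 genes did not rise and fall together across libraries. Over the 45 pairs of members, the Pearson correlation of log2(TPM + 1) over the 6 libraries had a median of -0.09 and ranged from -0.82 to 0.83, with 17 pairs positive. The summed level was 94.6 and 92.7 TPM in the controls, 85.6 and 87.5 TPM with Rbbp4 OE and 75.9 and 79.6 TPM with Rbbp7 OE. Tex19.1 made up most of these sums. Without Tex19.1 they were 35.0 and 38.5 TPM in the controls, 40.8 and 36.0 TPM with Rbbp4 OE and 31.9 and 33.0 TPM with Rbbp7 OE, so the Rbbp4 OE libraries then overlapped the controls. Among all tested genes with a symbol, the pattern most like Sycp3 was that of Ube2c (r = 0.9948) and Ass1 (r = 0.9902), that most like Hormad1 of Chrac1 (r = 0.9857) and Cars (r = 0.9769), and that most like Tex19.1 of Taf1d (r = 0.9973) and Accsl (r = 0.9950). These values are the highest of 14156 genes over only 6 libraries that share their groups, and they are given as a description.

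The other germline genes of the same kind were taken from a list of 36 genes for meiosis, the piRNA pathway and spermatogenesis, of which 27 passed the filter. None was called by the stricter rule, while an unadjusted limma p under 0.05 was found for 8 with Rbbp4 OE, 5 with Rbbp7 OE and 6 in the direct comparison, beside 29.6%, 15.4% and 19.0% of all tested genes. The log2 fold changes of the 27 had a median of 0.04 with Rbbp4 OE and -0.22 with Rbbp7 OE, against -0.08 and -0.00 over all tested genes. At an adjusted p under 0.05, 3 were higher and 2 lower in Rbbp4 OE, none differed in Rbbp7 OE, and 1 differed between the lines. Of all tested genes, 3.29% were higher and 8.07% lower in Rbbp4 OE by this rule, and 0.487% and 0.304% passed in Rbbp7 OE and between the lines. Promoter windows were found for 30 of the 36, and CACGTG was present in 23.3% of them, GCGGGA in 36.7% and at least 1 of the 2 in 56.7%.

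Stra8, which retinoic acid induces as germ cells enter meiosis, had the largest increase of this list. It had 2.98 and 2.72 TPM in the controls, 8.44 and 9.87 TPM with Rbbp4 OE and 4.15 and 5.34 TPM with Rbbp7 OE. All 4 overexpression libraries were above both controls, and those of Rbbp4 OE were highest. Stra8 rose by 1.40 on the log2 scale in Rbbp4 OE (SE 0.17, 95% interval 0.99 to 1.80, limma adjusted p = 0.0103), just short of the stricter rule, and had a value of 0.57 in Rbbp7 OE (limma adjusted p = 0.205). When any 1 library was left out, the adjusted p of Stra8 in Rbbp4 OE ranged from 0.0342 to 0.126. Over 17 alternatives its log2 fold change ranged from 0.85, with a pseudocount of 5, to 1.65, with a pseudocount of 0.1.

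Stk33, a serine/threonine kinase needed for sperm tails, moved the other way. It had 5.12 and 6.20 TPM in the controls, 1.07 and 1.69 TPM with Rbbp4 OE and 2.24 and 2.18 TPM with Rbbp7 OE, so all 4 overexpression libraries were below both controls. Stk33 fell by 1.49 on the log2 scale in Rbbp4 OE (limma adjusted p = 0.0132), and the adjusted p ranged from 0.0356 to 0.103 when any 1 library was left out. The log2 fold change of Stk33 in Rbbp4 OE was -0.74 with a pseudocount of 5 and -1.99 with 0.1. In Rbbp7 OE its log2 fold change was -1.05 and did not pass (limma adjusted p = 0.107).

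The other 3 had higher levels. Fkbp6, a co-chaperone of the piRNA pathway, had 51.2 and 44.8 TPM in the controls and 71.7 and 78.3 TPM in Rbbp4 OE (log2 fold change 0.63, limma adjusted p = 0.0149), against 50.6 and 49.2 TPM in Rbbp7 OE. Tuba3a, a tubulin of the testis, had 71.0 and 68.6 TPM in the controls and 108 and 111 TPM in Rbbp4 OE (log2 fold change 0.64, limma adjusted p = 0.00784), and it was also higher in Rbbp4 OE than in Rbbp7 OE (0.55, limma adjusted p = 0.0466). Its near copy Tuba3b covers 95.6% of the longest Tuba3a transcript at 96.5% identity, so reads of the 2 genes may be shared. Tuba3b was listed at 1.14 to 4.50 TPM over the 6 libraries, and the share of such reads was not tested. Syce2, a central element protein of the synaptonemal complex, had 71.6 and 62.8 TPM in the controls and 52.7 and 48.8 TPM in Rbbp4 OE (log2 fold change -0.40, limma adjusted p = 0.0452). It overlaps Gcdh on the opposite strand, which had 33.65 to 35.32 TPM over the 6 libraries. Without 1 library the adjusted p reached 0.142 for Fkbp6, 0.113 for Tuba3a and 0.223 for Syce2. Syce2 also did not pass with median-of-ratios scaling (-0.30, limma adjusted p = 0.141) or quantile normalization (-0.30, limma adjusted p = 0.123). Of the synaptonemal complex genes on both lists, the looser rule was passed in Rbbp4 OE by Sycp3, which was higher, and Syce2, which was lower.

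**Figure D4:**
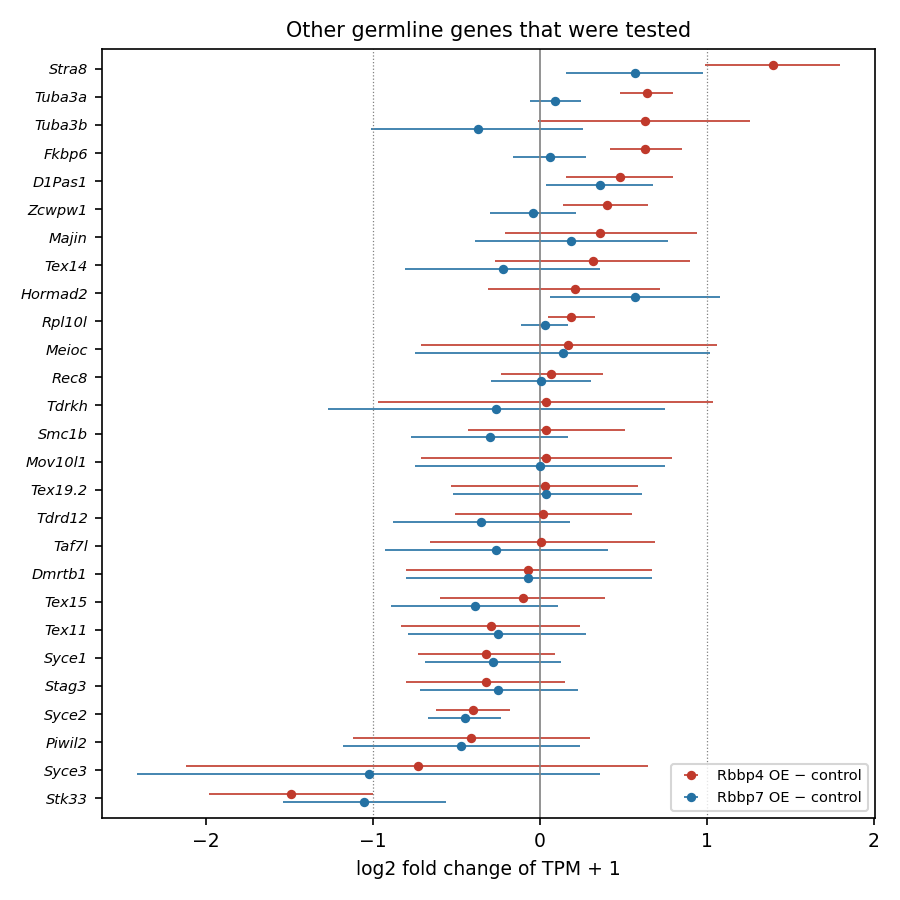
Log2 fold changes of TPM + 1 with 95% intervals for the 27 tested genes of the wider germline list, in Rbbp4 OE (red) and Rbbp7 OE (blue) against the same controls, ordered by the value in Rbbp4 OE; dotted lines mark a fold of 2. Stra8, at 1.40, and Stk33, at -1.49, lie at the ends of the list.

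Genes that silence germline promoters were examined as the other part of the pathway. Of 15 PRC1.6 subunit genes, none was called. Limma gave an unadjusted p under 0.05 for 5 in Rbbp4 OE and 0 in Rbbp7 OE, beside 29.6% and 15.4% of all tested genes. At an adjusted p under 0.05, 1 was lower in Rbbp4 OE and none differed in Rbbp7 OE. The gene that fell was Hdac1, a histone deacetylase of several repressor complexes, with 190 and 199 TPM in the controls and 152 TPM in both Rbbp4 OE libraries (log2 fold change -0.35, limma adjusted p = 0.0153). Pcgf6, the defining subunit, had 36.0 and 41.3 TPM in the controls and 31.3 and 29.1 TPM in Rbbp4 OE; this difference of -0.34 on the log2 scale did not pass (limma adjusted p = 0.0688). Mga had -0.27, Max -0.14, E2f6 -0.29 and L3mbtl2 -0.00 as log2 fold changes in Rbbp4 OE, with limma adjusted p from 0.261 to 0.982. Rnf2 had the lowest log2 fold change of the list in Rbbp4 OE, at -0.54 (limma adjusted p = 0.0579). Rybp had -0.35 (limma adjusted p = 0.057), and neither passed. In Rbbp4 OE, 3 of the 15 genes had positive and 12 negative values. The median over all tested genes was negative as well, and it was 0.00588 after median-of-ratios scaling. The share of negative values over all tested genes was not counted, so the signs alone do not set this list apart. The median of the list was -0.18 in Rbbp4 OE and 0.03 in Rbbp7 OE, against -0.08 and -0.00 over all tested genes.

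Of 13 genes for DNA methylation and demethylation, 2 were lower in Rbbp4 OE at an adjusted p under 0.05. None was called in either line and none passed in Rbbp7 OE. An unadjusted limma p under 0.05 was found for 5 in Rbbp4 OE and 2 in Rbbp7 OE, beside 29.6% and 15.4% of all tested genes. Uhrf2, a homolog of the maintenance factor UHRF1, had 12.6 and 14.8 TPM in the controls, 8.63 and 7.41 TPM with Rbbp4 OE and 9.92 and 10.2 TPM with Rbbp7 OE. It fell by 0.70 on the log2 scale in Rbbp4 OE (limma adjusted p = 0.0283). Hells, a remodeller that DNA methylation in heterochromatin requires, had 61.7 and 67.7 TPM in the controls and 47.9 and 50.4 TPM in Rbbp4 OE, and it fell by 0.39 (limma adjusted p = 0.0298). The methyltransferase genes did not pass: in Rbbp4 OE the log2 fold change was -0.05 for Dnmt1, 0.23 for Dnmt3a, 0.25 for Dnmt3b and 0.25 for Dnmt3l, and Uhrf1 had -0.12. In Rbbp7 OE the largest of these was Dnmt3l, at 0.37 (limma adjusted p = 0.124).

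Of 10 genes for H3K9 methylation, a histone mark that overlaps with DNA methylation at silent promoters, 2 were lower in Rbbp4 OE at an adjusted p under 0.05. None was called. An unadjusted limma p under 0.05 was found for 4 in Rbbp4 OE and 3 in Rbbp7 OE, beside 29.6% and 15.4% of all tested genes. Cbx5, which encodes the H3K9 methyl reader HP1α, had 46.8 and 51.8 TPM in the controls and 36.4 and 35.1 TPM in Rbbp4 OE, and it fell by 0.45 (limma adjusted p = 0.0245). Trim28, which encodes the corepressor KAP1, fell by 0.17 (limma adjusted p = 0.0491), and the scalings differed for it. Under median-of-ratios scaling its log2 fold change was -0.07 and did not pass (limma adjusted p = 0.584). With quantile normalization it was -0.25 and passed (limma adjusted p = 0.0121). Ehmt2, which encodes the methyltransferase G9a, differed by 0.14 on the log2 scale (limma adjusted p = 0.179). These counts of lower genes, 1 of 15, 2 of 13 and 2 of 10, stand beside 8.07% of tested genes that were lower by the same rule in Rbbp4 OE. None of the 5 held its adjusted p under 0.05 when each library was left out in turn: the highest value was 0.127 for Hdac1, 0.183 for Uhrf2, 0.161 for Hells, 0.165 for Cbx5 and 0.231 for Trim28, while their signs did not change.

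**Figure D5:**
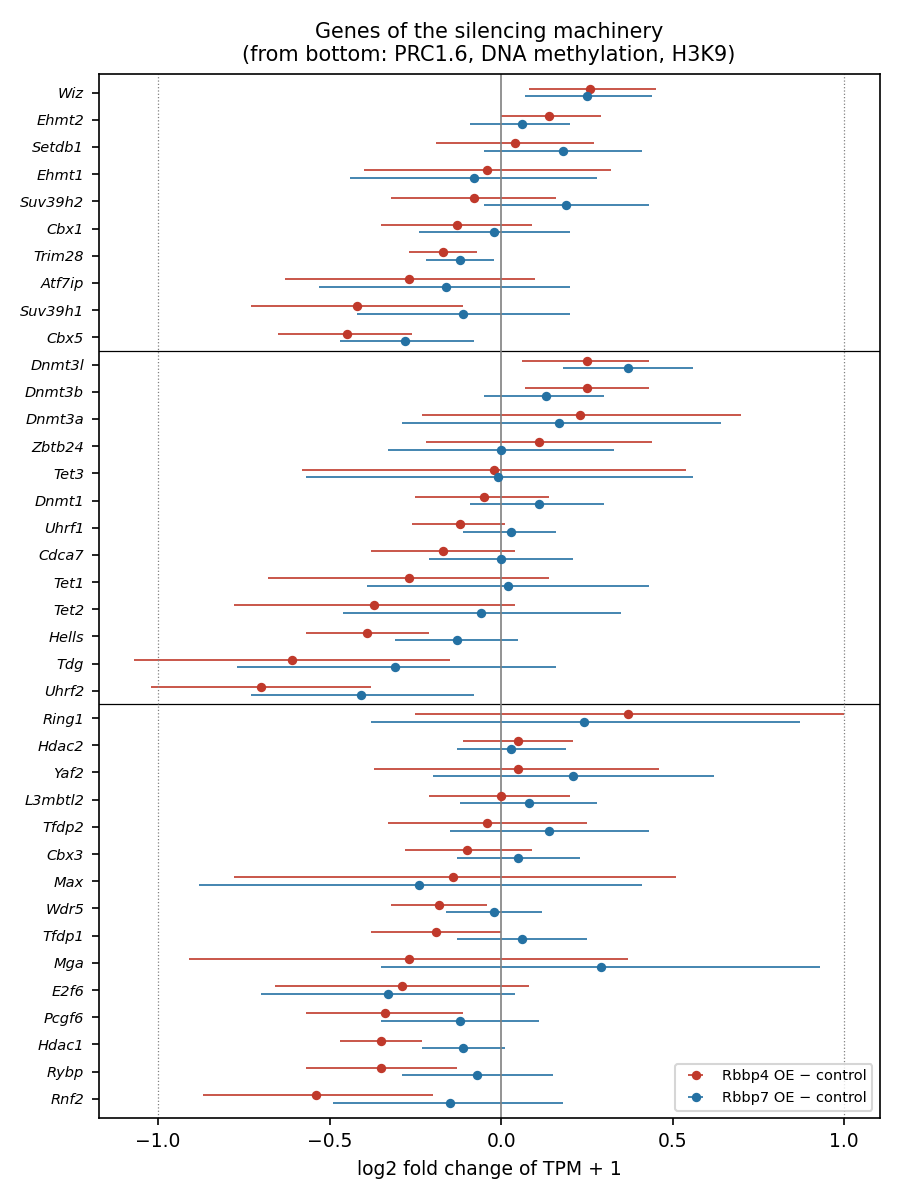
Log2 fold changes of TPM + 1 with 95% intervals for genes of PRC1.6 (bottom), DNA methylation and demethylation (middle) and H3K9 methylation (top), in Rbbp4 OE (red) and Rbbp7 OE (blue) against the same controls. Uhrf2, at -0.70, is the lowest value in Rbbp4 OE, and no gene had an adjusted p under 0.05 in Rbbp7 OE.

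Markers of other cells were set beside these results. In Rbbp4 OE, of the 8 pluripotent cell markers Pou5f1 (log2 fold change 0.25) and Utf1 (0.46) were higher, and Nanog (-0.23) and Tfcp2l1 (-0.52) were lower, at a limma adjusted p under 0.05. With median-of-ratios scaling Nanog (-0.13, limma adjusted p = 0.139) and Pou5f1 (0.35, limma adjusted p = 0.0569) did not pass, nor did Nanog with quantile normalization (limma adjusted p = 0.0661). Of the 4 tested trophoblast markers, 2 had positive and 2 negative log2 fold changes in Rbbp4 OE, with a median of -0.06. Tfap2c, which germ cells also express, was higher (0.44, limma adjusted p = 0.0385), while Eomes (0.41), Cdx2 (-0.52) and Gata3 (-0.54) did not pass (limma adjusted p from 0.0822 to 0.185). In Rbbp7 OE, 2 of the 4 tested trophoblast markers had positive and 2 negative log2 fold changes. The largest was that of Eomes, at 0.84 (95% interval 0.54 to 1.14, limma adjusted p = 0.0689), which did not pass. Utf1 was higher in Rbbp7 OE (0.54, limma adjusted p = 0.0305). When each library was left out in turn, the adjusted p in Rbbp4 OE reached 0.125 to 0.209 for these 5 genes, with no change of sign, and that of Utf1 in Rbbp7 OE reached 0.212. None of the 4 tested germ cell and spermatid markers passed in either line. The part of a shift in cell state in the values of Sycp3, Stra8 and Stk33 was not tested.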

How the data were processed

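Poly(A) RNA-seq of 6 mESC libraries was used, 2 in each of 3 groups taken from the sample labels. The authors trimmed reads with Trim_galore, aligned them to mm10 with STAR, estimated expression with RSEM and deposited TPM values per gene; each table sums to 1000000, so depth is not kept and no counting interval is given. The study used a count model, DESeq2, for which TPM values are not suited. Here limma-trend (limma 3.58.1, R 4.3.3) was run on log2(TPM + 1) for the 14156 genes with a mean of at least 0.5 TPM, with all 3 groups in 1 fit and no covariate (3 residual and 3.103 prior degrees of freedom), two-sided, with Benjamini-Hochberg adjustment over all genes tested. Genes were called at an adjusted p under 0.01 and a fold over 2, the thresholds of the study, with the fold taken on TPM + 1. A looser rule was an adjusted p under 0.05 whatever the fold. The log2(TPM + 1) scale understates the change of low genes. Intervals are 95% and cover the spread between libraries. The fit was tested on simulated data.

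Gene names came from GENCODE M21 on GRCm38, which matched 55141 of 55401 identifiers; the study used a later release. Similar transcripts were searched with blastn 2.17.0 at 95% identity over at least 100 bases. Promoter windows came from RefSeq (GRCm38.p6). Named genes were the 10 members, Rbbp4, Rbbp7, 11 genes of the silencing machinery and the 2 genes most like each member. They also held genes of each list that were called or among the 5 with the largest change at an adjusted p under 0.05. Chpt1, Gm15529, Tuba3b and Gcdh were added as overlapping or similar genes. Marker genes at 0, Kit, Elf5, Cdx2, Gata3, Eomes, Hand1 and the PRC1.6 genes Rnf2 and Rybp were named after their values were seen. The members and lists were chosen with earlier results of these data known. Alternatives were other pseudocounts, filters, scalings, fits and thresholds, protein-coding genes only, a replicate block and leaving out each library. The correlation of deviations between same-numbered libraries was -0.0263, 0.0336 and -0.0308, so no effect shared by number was seen. This cannot show whether same-numbered libraries were prepared together, which the labels do not say.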

Additional observations from a re-analysis of the deposited data

How the results depend on the processing

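With 2 libraries a group, every count of calls depends on single libraries. In Rbbp4 OE against control 73 genes were called (29 higher, 44 lower), against 31 with a pseudocount of 5, 4 with no filter, 44 with a mean of at least 0.1 TPM, 48 with median-of-ratios scaling (25 higher, 23 lower), 4 with the replicate block, 1 in a 2-group fit, 197 with the fold and an adjusted p under 0.05, and 1609 without the fold. In Rbbp7 OE against control 5 were called, against 2 with no filter, 8 with a mean of at least 5 TPM, 0 in a 2-group fit, and 24 and 69 under the looser rules. Between the lines 7 were called, against 4 with no filter, 1 among protein-coding genes only, and 23 and 43 under the looser rules. Leaving out 1 library gave 0 to 40, 0 to 0 and 0 to 42 calls in these comparisons; the first was 0 without either control or either Rbbp7 OE library, 1 without Rbbp4 OE replicate 2 and 40 without Rbbp4 OE replicate 1. The cause was not tested.

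Of the members, 0 were called in every setting of these comparisons except 1, Sycp3 in Rbbp4 OE, at an adjusted p under 0.05 without a fold. Over 17 alternatives its log2 fold change ranged from 0.51 to 0.84 and its adjusted p from 0.0194 to 0.175. It was under 0.05 in 8 and over 0.05 with the replicate block (0.052), with no filter (0.0692), in the 2-group fit (0.0700) and without any 1 library. Of the other germline genes in Rbbp4 OE, 0 were called, against 1 (Stra8) with a pseudocount of 0.1 or a mean of at least 5 TPM, 2 (Stra8 and Stk33) with a robust trend, among protein-coding genes or at an adjusted p under 0.05 with the fold, and 5 without the fold; between the lines it was 1 without the fold. The replicate block moved no other count of calls by over 1.5 times.

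Under other settings, directions turned for values near 0. With a pseudocount of 0.1, the log2 fold change of Sycp1 between the lines was -0.0045. With median-of-ratios scaling it was 0.0262 for Dazl, 0.0489 for Dnmt1 and 0.0957 for L3mbtl2 in Rbbp4 OE, and 0.0157 for Slc25a31, 0.0130 for L3mbtl2, 0.0477 for Trim28 and 0.0186 for Utf1 between the lines. With quantile normalization it was 0.0125 for Dazl, 0.0076 for Dnmt1 and 0.0649 for L3mbtl2 in Rbbp4 OE, -0.0027 for Ddx4, -0.0371 for Tex101 and 0.0040 for Rbbp4 in Rbbp7 OE, and 0.0073 for Dazl between the lines.

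Leaving out 1 library also turned some directions. In Rbbp4 OE against control the log2 fold change then ranged from -0.13 to 0.0209 for Dazl, from -0.0202 to 0.31 for Ddx4, from -0.32 to 0.0583 for Stk31, from -0.20 to 0.0588 for Slc25a31, from -0.16 to 0.0541 for Dnmt1, from -0.0193 to 0.49 for Dnmt3a, from -0.67 to 0.13 for Mga, from -0.55 to 0.28 for Max and from -0.10 to 0.0946 for L3mbtl2. In Rbbp7 OE against control it ranged from -0.0371 to 0.11 for Dazl, from -0.12 to 0.21 for Ddx4, from -0.0112 to 0.25 for Sycp3, from -0.22 to 0.24 for Tex101, from -0.18 to 0.0755 for Slc25a31, from -0.0007 to 0.21 for Dnmt1, from -0.0262 to 0.0823 for Uhrf1, from -0.11 to 0.69 for Mga, from -0.65 to 0.17 for Max, from -0.0209 to 0.18 for L3mbtl2 and from -0.0357 to 0.15 for Fkbp6. Between the lines it ranged from -0.25 to 0.25 for Sycp1, from -0.0172 to 0.45 for Tex101, from -0.0154 to 0.18 for Tex19.1, from -0.10 to 0.0688 for Slc25a31, from -0.19 to 0.32 for Dnmt3a, from -0.0839 to 0.28 for Max, from -0.0802 to 0.16 for E2f6 and from -0.0014 to 0.11 for Syce2. The differences of Hormad1 and Tex19.1 from the controls kept their sign in all 17 alternatives, with the lowest adjusted p at 0.0884 and 0.114 with Rbbp4 OE and 0.144 and 0.149 with Rbbp7 OE. For the members, 19 of the values without 1 library and 7 of those in other settings changed sign, and 161 and 305 did not.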
